A study of Mus musculus with 12 samples.

Results

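The tumor necrosis factor (TNF) superfamily was examined as 44 genes among the 46103 listed in the tables: every symbol beginning with Tnfsf or Tnfrsf and a digit, together with Tnf, Lta, Ltb, Ltbr, Cd27, Cd70, Cd40, Cd40lg, Fas, Fasl, Ngfr and Relt. The rule gave 17 ligand genes, 26 receptor genes and Tnfsf13os, which is annotated as an opposite-strand transcript and codes for no ligand. RNA had been sequenced from leukemic stem and progenitor cells of C57BL/6 mice with a chronic myeloid leukemia-like disease. In this model, marrow from fluorouracil-treated donors was infected with a retrovirus carrying BCR-ABL1 and GFP and transplanted into lethally irradiated wild-type mice, together with uninfected marrow that also persists in the host. The donors carried the G0 marker (G0M), an mVenus fusion with a defective p27 placed in Rosa26 and switched on by Vav1-Cre in blood cells, which accumulates in quiescent cells.

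All 4 groups were BCR-ABL1+ KSL cells (c-Kit+, Sca-1+, lineage-negative) that stained for CD27, and the labels name bone marrow and spleen as the tissue. DP cells were G0M+CD27+ and SP cells were G0M-CD27+, both from vehicle-treated mice. IMDP cells (G0M+CD27+) and IMSP cells (G0M-CD27+) came from mice that received imatinib daily by gavage, which blocks the kinase activity of BCR-ABL1. Each group had 3 libraries of 100 sorted cells, and the study's methods describe its mice as young adult females. The labels do not say whether the replicates came from separate mice, so p-values measure only the spread between these samples, which may be technical.

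Ligands of the superfamily are made as membrane proteins that assemble into trimers, and proteases release some of them as soluble cytokines. Receptors that carry a death domain, such as TNFR1, Fas and the TRAIL receptor, can engage FADD and caspase-8 and kill the cell, whereas most of the others recruit TRAF adaptors and switch on NF-κB, the lymphotoxin β receptor, CD40, RANK and the BAFF receptor also through the non-canonical branch. In blood formation the family is best known from lymphocytes and inflammation, but TNF, TRAIL, CD27 and RANK ligand also act on stem and progenitor cells or their niche.

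The 12 tables hold RPKM (reads per kilobase of transcript, scaled to the mapped reads of the library), from which whole reads were recovered. Totals ran from 11.4 to 20.6 M (mega) reads, of which 25.9% to 37.1% fell on the listed genes. For a transcript of 1 kb, 1 read was worth 0.0486 to 0.0880 RPKM. Kit (16.8 to 39.8 RPKM) and Ly6a, which encodes Sca-1 (3.12 to 20.8 RPKM), were found in all 12 libraries. Mki67, a gene of cycling cells, lay at 10.9 to 21.2 RPKM in DP, 50.8 to 57.7 in SP, 7.18 to 10.1 in IMDP and 54.5 to 70.6 in IMSP libraries. All imatinib libraries carry lower library numbers (1 to 6) than the vehicle libraries (7 to 12), so treatment and library order cannot be told apart in any comparison of imatinib with vehicle.

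Of the 44 members, 41 were above 0 in at least 1 library and 25 in all 12, and 20 (7 ligands and 13 receptors) reached 1 RPKM in at least 3 libraries and were tested. The 3 members at 0 in every library were Cd70, the ligand of CD27, the nerve growth factor receptor gene Ngfr, and Tnfsf13os. mRNA of the CD27 ligand was therefore not detectable at this depth. Receptor genes gave most of the signal: summed over the 26 receptors, levels per library were 71.1 to 109 RPKM, against 16.1 to 38.0 RPKM over the 17 ligands. In bulk samples such as these, fewer cells of a type and less RNA per cell cannot be told apart.

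By the mean over all 12 libraries, the order of the tested members began with Tnfrsf21 at 15.6 RPKM (range 10.8 to 22.2), which encodes the death receptor DR6, and Cd27 at 15.1 RPKM (range 12.2 to 21.4). Their ranges overlap almost wholly, so these neighbours in the order do not differ beyond their spread. Tnfrsf1a (TNFR1) followed at 10.5 RPKM and Tnfrsf14 (HVEM) at 9.09, and Ltbr, Tnfrsf1b (TNFR2), Tnfsf10 (TRAIL), Tnfrsf13b (TACI, a receptor for APRIL and BAFF) and Tnfrsf26 lay between 6.46 and 5.07 RPKM with overlapping ranges. Relt, an orphan receptor gene, was the steadiest of the next group, at 3.59 to 5.27 RPKM. The highest ligand was Tnfsf10, with a mean of 5.91 RPKM, and the ligands Tnfsf13 (APRIL, 4.24), Tnf (4.02), Ltb (3.48) and Tnfsf14 (LIGHT, 2.58) came next.

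**Figure D1:**
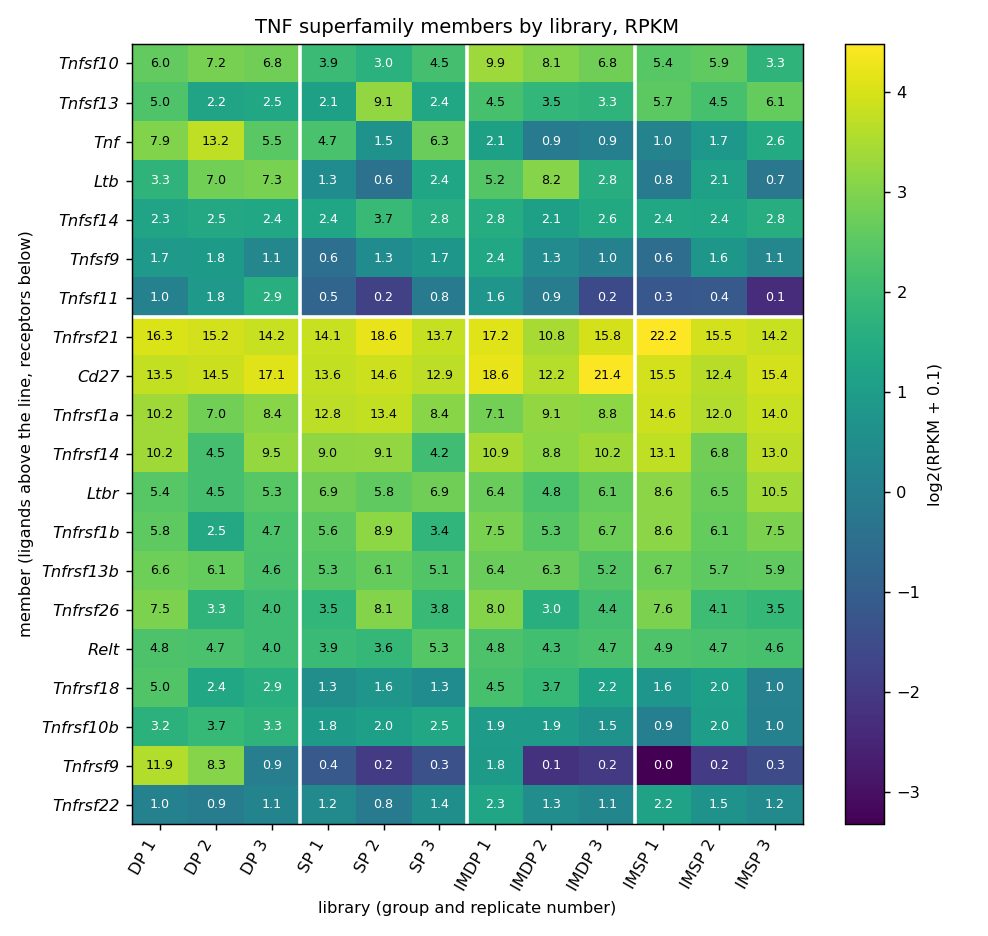
RPKM of the 20 tested members (rows, ligands above the white line and receptors below, each ordered by mean) in the 12 libraries (columns, 3 per group, white lines between groups), coloured by log2(RPKM + 0.1). Tnfrsf21 and Cd27 form bright rows in every library, Ltb and Tnfrsf18 are brighter in the DP and IMDP columns, and Tnf is brightest in DP 2 at 13.2 RPKM and lies below 3 RPKM in every imatinib library.

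A further 11 members were under the filter but had at least 10 reads in some library. The receptor genes Tnfrsf11a (RANK, 350 reads over the 12 libraries), Tnfrsf13c (BAFF receptor, 190), Tnfrsf4 (OX40, 162) and Tnfrsf12a (the TWEAK receptor Fn14, 116) and the ligand genes Tnfsf8 (CD30 ligand, 267) and Tnfsf4 (OX40 ligand, 151) were above 0 in all 12 libraries. Tnfrsf23, a decoy receptor for TRAIL in the mouse, had 221 reads in 11 libraries, and Tnfsf12 (TWEAK) had 71 reads in 10. Lta, the lymphotoxin α gene next to Tnf, had 59 reads, Fas had 51 and Tnfrsf25 (DR3) had 28, in 8, 9 and 7 libraries. Lta was listed at 0 in IMDP 1 and in all 3 IMSP libraries, and was highest in DP 2 with 17 reads.

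Tnfsf4 was uneven within the imatinib groups, with 44 reads (1.84 RPKM) in IMDP 2 and 41 reads (2.24 RPKM) in IMSP 2 but 1 to 5 reads in the other imatinib libraries. IMDP 2 and IMSP 2 share a replicate number. The remaining 10 detected members, Cd40, Cd40lg, Fasl, Tnfrsf11b, Tnfrsf17, Tnfrsf19, Tnfrsf8, Tnfsf13b, Tnfsf15 and Tnfsf18, had 1 to 23 reads over all libraries together and never exceeded 0.230 RPKM. The genes for CD40, its ligand and Fas ligand, the classical lymphocyte members, were therefore at or near the floor in these sorted cells.

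The G0M+ cells of both treatments differed from the G0M- cells in 8 of the 20 tested members. Ltb, Tnfrsf18, Tnfsf10, Tnfrsf9, Tnfsf11 and Tnfrsf10b were higher in G0M+ cells and Tnfrsf1a and Ltbr were lower (limma on log2(RPKM + 0.1), averaged over treatments, adjusted over all 10072 genes tested). Among all genes, 5.32% were called higher and 21% lower in this comparison, so 6 of 20 members were called higher where the background is 5.32%, and 2 of 20 lower where it is 21% (26.3% in either direction). Of these 6, Tnfrsf9 and Tnfsf11 each reached 1 RPKM in only 3 libraries, all G0M+. They passed the filter only through the group in which they are high, so they lend no support to that count. Leaving out DP 2 or IMSP 1 left 4 of the 8 calls (Ltb, Tnfrsf18, Tnfsf10 and Tnfrsf1a), among 1741 and 1607 genes called in place of 2648. The median log2 fold change was 0.02 over the members and -0.13 over all genes tested. Without averaging, 0 members were called between DP and SP (background 2.26%, with 7 members at an unadjusted p under 0.05 at a background of 13.2%, and 0 members among the 263 genes called by limma-voom on recovered reads) and 4 between IMDP and IMSP (background 25.6%), 3 of them higher (background 2.37%) and 1 lower (background 23.3%). With pairs of adjacent library numbers as a block, whose DP and SP libraries deviated together, 5 members (Ltb, Tnfrsf18, Tnfrsf9, Tnfsf10 and Tnfsf11) were called between DP and SP, among 980 genes in place of 228. Of those genes 42.9% were higher, in place of 12.7%. Compared by overlap, 6 members lay fully higher and 1 fully lower in DP than in SP libraries (background 9.68% and 12.7%), and 3 fully higher and 2 fully lower in IMDP than in IMSP libraries (background 6.21% and 32.8%).

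**Figure D2:**
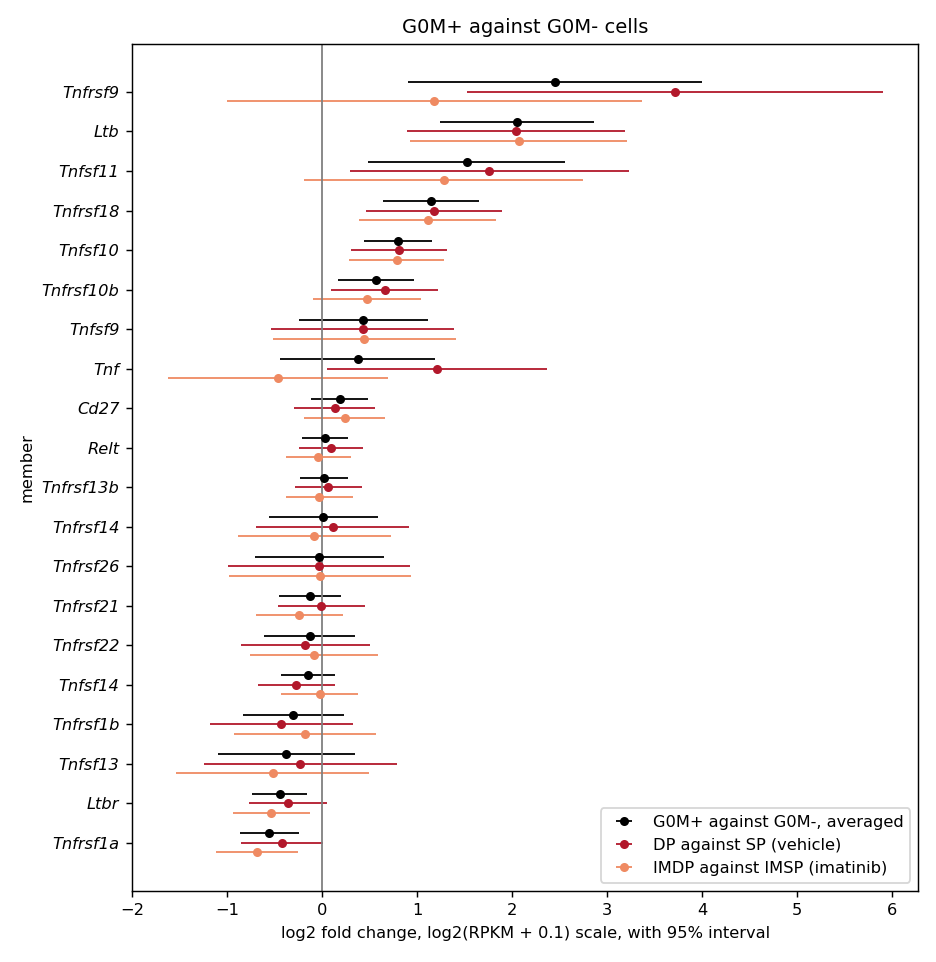
Log2 fold changes (points) with 95% intervals (bars) of G0M+ against G0M- cells for the 20 tested members, on the log2(RPKM + 0.1) scale, averaged over treatments and within each treatment. The intervals of the averaged comparison lie wholly above 0 for Tnfrsf9, Ltb, Tnfsf11, Tnfrsf18, Tnfsf10 and Tnfrsf10b and wholly below 0 for Ltbr and Tnfrsf1a.

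Ltb encodes lymphotoxin β, the membrane anchor that holds lymphotoxin α in the heterotrimer recognised by the lymphotoxin β receptor, and the gene lies on GRCm38 chromosome 17 from 35194439 to 35196320. Its level was 3.27, 7.00 and 7.35 RPKM in DP and 1.29, 0.646 and 2.37 RPKM in SP libraries, and 5.16, 8.23 and 2.80 RPKM in IMDP against 0.831, 2.09 and 0.745 RPKM in IMSP libraries. All 6 G0M+ libraries lay above all 6 G0M- libraries. The averaged log2 fold change was 2.05 ± 0.37 (SE, 95% interval 1.24 to 2.86, limma, adjusted p = 0.00308), and the difference within imatinib-treated mice was also called (2.07 ± 0.52, adjusted p = 0.0162). These values rest on 52 to 134 reads in the G0M+ and 11 to 35 reads in the G0M- libraries. Only 3 members, Ltb, Tnfrsf18 and Tnfsf10, separated the populations fully, where 1.21% of all genes tested lay fully higher in the G0M+ libraries.

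The receptor for that ligand went the other way. Ltbr (chromosome 6, 125306571 to 125313885) lay at 4.46 to 5.37 RPKM in DP and 5.83 to 6.85 in SP libraries, and at 4.76 to 6.44 in IMDP and 6.48 to 10.5 in IMSP libraries, without overlap within either treatment. It was lower in the G0M+ cells within each of the 6 pairs of adjacent library numbers, as 24.9% of all genes were. Each pair holds a G0M+ and a G0M- library of the same treatment. On average the log2 fold change was -0.45 ± 0.13 (limma, adjusted p = 0.0279), a call lost under 8 of 21 alternatives, among them leaving out DP 2, DP 3, IMDP 2, IMSP 1, IMSP 3, SP 1 or SP 3. Between IMDP and IMSP it was -0.54 (limma, adjusted p = 0.0521), which passed with the replicate number as a block (adjusted p = 0.0155). The ratio of Ltb to Ltbr RPKM was 0.608 to 1.57 in DP and 0.458 to 1.73 in IMDP libraries, and 0.111 to 0.346 in SP and 0.0712 to 0.323 in IMSP libraries. The other ligand of this receptor that passed the filter, Tnfsf14, lay at 2.09 to 3.72 RPKM over all libraries and was not called, with a 95% interval of -0.43 to 0.14 for the averaged log2 fold change.

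Tnfrsf1a (chromosome 6, 125349362 to 125362484), which encodes the death-domain receptor for TNF, neighbours Ltbr with a gap of 35.5 kb and was also lower in G0M+ cells. It measured 10.2, 7.00 and 8.37 RPKM in DP and 12.8, 13.4 and 8.44 in SP libraries, and 7.15, 9.11 and 8.82 in IMDP against 14.6, 12.0 and 14.0 in IMSP libraries. The DP and SP ranges overlapped and the IMDP and IMSP ranges did not. The averaged log2 fold change was -0.56 ± 0.14 (limma, adjusted p = 0.0150), and -0.69 ± 0.20 (adjusted p = 0.0266) between IMDP and IMSP. All genes tested had a median of -0.25 between IMDP and IMSP, and relative to it Tnfrsf1a was -0.43. After scaling all libraries to the same median neither Tnfrsf1a (adjusted p = 0.0587, averaged) nor Ltbr (adjusted p = 0.137) was called.

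The receptor without a death domain, Tnfrsf1b, was not called (averaged log2 fold change -0.31, 95% interval -0.84 to 0.22, limma, adjusted p = 0.359). Its RPKM was nevertheless lower in the G0M+ library of each of the 6 library pairs, at a background of 24.9%. Tnf itself did not pass between the populations: the averaged difference was 0.37 (95% interval -0.45 to 1.19, limma, adjusted p = 0.476).

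Within the death-ligand axis, Tnfsf10 (chromosome 3, 27317028 to 27342427), which encodes TRAIL, was higher in G0M+ cells. DP libraries gave 5.97, 7.23 and 6.85 RPKM and SP libraries 3.90, 3.04 and 4.48, while IMDP libraries gave 9.94, 8.13 and 6.77 and IMSP libraries 5.42, 5.87 and 3.27. The 6 G0M+ libraries lay above the 6 G0M- libraries. On average the log2 fold change was 0.80 ± 0.16 (95% interval 0.44 to 1.15, limma, adjusted p = 0.00589), with 0.81 between DP and SP (adjusted p = 0.117, or 0.00889 with the library-number block) and 0.78 between IMDP and IMSP (adjusted p = 0.0286). Tnfsf10 was the most deeply read of the ligands, with 218 to 635 reads per library.

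Tnfrsf10b (chromosome 14), the mouse death receptor for TRAIL, was higher as well, by 0.56 ± 0.18 (limma, adjusted p = 0.0405). Its mean was 3.36 ± 0.279 RPKM (SD, n = 3) for the DP group and 2.11 ± 0.336 for the SP group, with 1.75 ± 0.227 for IMDP and 1.30 ± 0.599 for IMSP. DP and SP libraries did not overlap, but IMDP and IMSP libraries did, and 5 of the 6 library pairs had the higher value in the G0M+ library. Of the TRAIL decoy receptors beside Tnfrsf26 on chromosome 7, Tnfrsf22 was tested and not called (0.825 to 2.29 RPKM, averaged log2 fold change -0.13, 95% interval -0.61 to 0.34). The averaged call of Tnfrsf10b was lost under 11 of 21 alternatives (adjusted p = 0.0891 without DP 2), among them leaving out DP 1, DP 2, DP 3, IMDP 1, IMDP 2, IMSP 1, IMSP 3, SP 1 or SP 2, whereas that of Tnfsf10 was kept under all 21.

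Tnfrsf18 encodes GITR, a costimulatory receptor best known from regulatory T cells, and lies on chromosome 4 from 156026164 to 156028895, 9.55 kb from Tnfrsf4. It reached 5.01, 2.43 and 2.95 RPKM in DP against 1.35, 1.59 and 1.30 in SP libraries, and 4.54, 3.68 and 2.20 in IMDP against 1.62, 2.02 and 1.00 in IMSP libraries. Again no G0M- library reached the lowest G0M+ library. The averaged log2 fold change was 1.14 ± 0.23 (95% interval 0.64 to 1.65, limma, adjusted p = 0.00578). Its ligand gene Tnfsf18 had a total of 1 read in 12 libraries, and its neighbour Tnfrsf4 was under the filter, at no more than 1.11 RPKM. Of the 9 T and NK cell genes followed as markers, Nkg7 (25.1 to 265 RPKM) and Lck (1.07 to 5.78 RPKM) were found in all 12 libraries. Cd3e (1.27 RPKM), Ncr1 (1.18), Cd3g (0.757) and Cd3d (0.614) were each highest in IMDP 1, which also had the highest Tnfrsf18 of the IMDP libraries. In the other 11 libraries Cd3e, Cd3g, Cd3d, Cd4 and Cd8a reached at most 0.422 RPKM, and Klrb1c was highest in IMDP 2. Their part in the difference of Tnfrsf18 was not tested beyond leaving libraries out. Without DP 1 and IMDP 1, the libraries with the most mast cell and basophil markers, the averaged difference of Tnfrsf18 was 0.89 (limma, adjusted p = 0.0145).

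Tnfrsf9 (chromosome 4, 150914562 to 150946102), the gene for the costimulatory receptor CD137, had the largest log2 fold change of the called members and the least even values. It reached 11.9, 8.27 and 0.921 RPKM in DP libraries, and 0.352, 0.161 and 0.285 RPKM in SP libraries. IMDP 1 gave 1.81 RPKM, whereas the other IMDP libraries (0.122 and 0.151) lay among the IMSP libraries (0, 0.160 and 0.253). In reads, the DP libraries held 438, 304 and 32 and each of the other libraries 55 or fewer. Only DP 1, DP 2 and IMDP 1, all G0M+, reached 1 RPKM, so Tnfrsf9 passed the filter only through the group in which it is high. The difference of 2.45 ± 0.71 averaged over treatments (log2, limma, adjusted p = 0.0266) depends on the pseudocount, since IMSP 1 is listed at 0. The difference was 1.36 with a pseudocount of 1 RPKM. It was not called without DP 1 and IMDP 1 (1.60, adjusted p = 0.101), with limma-voom, or without DP 1, DP 2, IMSP 1 or SP 2 alone, and the sign held in 4 of the 6 library pairs. Its ligand gene Tnfsf9 ran from 0.596 to 2.43 RPKM with overlapping groups and was not called (averaged 0.43, 95% interval -0.25 to 1.11).

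Tnfsf11 (chromosome 14, 78277445 to 78308043) encodes RANK ligand, the cytokine that drives osteoclast formation. It was low but graded: 0.971, 1.77 and 2.87 RPKM in DP, 0.478, 0.185 and 0.831 in SP, 1.59, 0.872 and 0.238 in IMDP, and 0.331, 0.354 and 0.0996 in IMSP libraries. DP libraries lay above SP libraries, and IMDP 3 lay among the IMSP libraries. Only DP 2, DP 3 and IMDP 1, all G0M+, reached 1 RPKM, so the gene passed the filter only through the group in which it is high. The averaged log2 fold change was 1.52 ± 0.48 (95% interval 0.48 to 2.56, limma, adjusted p = 0.0357), the G0M+ library was higher in all 6 library pairs (background 11.3%), and the values rest on 3 to 95 reads. This call was lost under 11 of 21 alternatives (adjusted p up to 0.0980), among them limma-voom, the replicate block and leaving out DP 2, DP 3, IMDP 1, IMDP 2, IMSP 1, IMSP 3, SP 1 or SP 2, and the difference was 0.72 with a pseudocount of 1 RPKM. Its receptor gene Tnfrsf11a was present in every library at 0.176 to 0.709 RPKM, and the soluble decoy gene Tnfrsf11b had 14 reads in all.

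**Figure D3:**
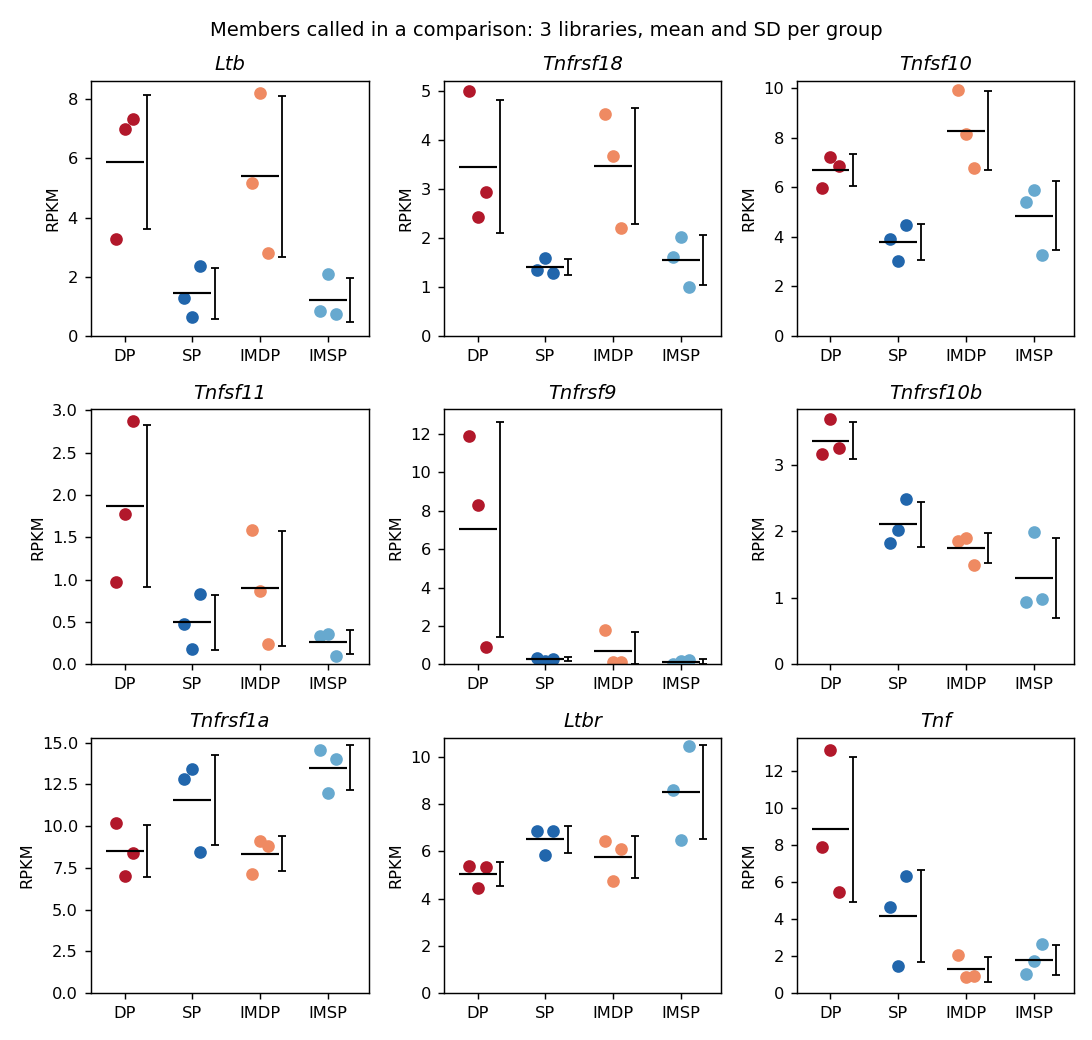
RPKM of the 9 members called in any comparison, with each library as a point, the group mean as a line and the SD (n = 3) as the bar beside it, cut at 0 for Tnfrsf9 in IMDP. For Ltb, Tnfrsf18 and Tnfsf10 all DP and IMDP points lie above all SP and IMSP points, Tnfrsf9 is carried by 2 DP libraries at 11.9 and 8.27 RPKM, and the IMDP points of Tnf lie below 2.1 RPKM.

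The remaining tested members did not pass between G0M+ and G0M- cells. For Cd27 the averaged log2 fold change was 0.18 (95% interval -0.12 to 0.48) in cells that had all been sorted for CD27 protein. The narrowest intervals were those of Relt (-0.21 to 0.27) and Tnfrsf13b (-0.23 to 0.27). Tnfrsf21 lay between -0.45 and 0.20, Tnfrsf14 between -0.56 and 0.58, Tnfrsf26 between -0.71 and 0.65, and Tnfsf13 between -1.10 and 0.34. Tnfsf13 was highest in SP 2, at 9.13 RPKM against 2.06 and 2.39 in the other SP libraries.

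Markers of other cell types also moved with the populations. The 9 mast cell and basophil genes summed to 80.1 to 298 RPKM in DP and 20.1 to 21.6 in SP, and to 25.4 to 197 in IMDP and 16.1 to 26.4 in IMSP libraries, highest in DP 1 and IMDP 1. The 6 erythroid genes summed to 203 to 263, 53.6 to 145, 56.5 to 378 and 9.35 to 71.2 RPKM in the same order. The 7 neutrophil genes, nearly all Mpo and Elane, ran the other way at 45.6 to 1055 in DP, 284 to 2007 in SP, 49.9 to 204 in IMDP and 370 to 1605 in IMSP libraries. The 7 macrophage genes summed to 3.52 to 13.2, 1.47 to 5.51, 13.5 to 15.3 and 3.82 to 30.5 RPKM, with C1qa, C1qb, C1qc and Cd5l at 0 in every SP and IMSP library. The highest of these sums, in IMSP 3, was nearly all Csf1r (28.7 RPKM). The 6 dendritic cell genes summed to 8.13 to 22.9, 4.77 to 10.8, 3.13 to 19.6 and 3.50 to 10.7. The B cell genes Ms4a1 and Pax5 were at 0 throughout, with the 5 B cell genes summing to at most 4.13 RPKM, and the 9 T and NK cell genes, led by Nkg7, summed to 85.9 to 175 in DP, 96.5 to 266 in SP, 29.7 to 89.7 in IMDP and 63.0 to 168 in IMSP libraries. Their part in the members' differences was not tested beyond leaving out DP 1 and IMDP 1, after which 6 of the 8 members were still called and Tnfrsf9 and Tnfrsf10b were not.

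Promoter sequences are shown for the 3 members whose G0M+ and G0M- libraries did not overlap, and for Tnf, the member called under imatinib, which lies 3.06 kb from Ltb on chromosome 17. Each is the RefSeq window of GRCm38.p6 from 250 bases before to 50 bases after a start, read 5′ to 3′ on the strand of the gene, with capitals marking matches to the κB consensus or to TTCNNNGAA (the STAT-type palindrome), both searched on both strands. They lie at chr17:35194257-35194556 (plus strand, Ltb), chr4:156026072-156026371 (plus strand, Tnfrsf18), chr3:27316827-27317126 (plus strand, Tnfsf10) and chr17:35201958-35202257 (minus strand, Tnf).
Ltb: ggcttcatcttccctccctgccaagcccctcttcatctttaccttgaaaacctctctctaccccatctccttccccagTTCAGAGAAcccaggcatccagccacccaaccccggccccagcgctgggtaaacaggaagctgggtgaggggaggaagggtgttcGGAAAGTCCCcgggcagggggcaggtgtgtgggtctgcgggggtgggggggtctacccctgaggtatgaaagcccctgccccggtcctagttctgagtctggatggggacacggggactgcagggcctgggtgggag
Tnfrsf18: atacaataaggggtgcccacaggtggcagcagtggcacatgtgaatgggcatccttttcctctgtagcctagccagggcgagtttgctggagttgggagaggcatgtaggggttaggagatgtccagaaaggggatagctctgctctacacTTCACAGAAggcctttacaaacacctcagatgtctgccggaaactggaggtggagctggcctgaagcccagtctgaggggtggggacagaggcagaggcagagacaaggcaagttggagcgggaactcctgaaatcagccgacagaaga
Tnfsf10: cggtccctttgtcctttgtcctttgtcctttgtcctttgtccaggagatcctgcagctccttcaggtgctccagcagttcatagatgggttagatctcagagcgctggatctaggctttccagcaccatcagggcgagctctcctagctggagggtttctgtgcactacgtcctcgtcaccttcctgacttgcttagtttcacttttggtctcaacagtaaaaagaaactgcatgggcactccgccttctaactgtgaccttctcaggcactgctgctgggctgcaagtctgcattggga
Tnf: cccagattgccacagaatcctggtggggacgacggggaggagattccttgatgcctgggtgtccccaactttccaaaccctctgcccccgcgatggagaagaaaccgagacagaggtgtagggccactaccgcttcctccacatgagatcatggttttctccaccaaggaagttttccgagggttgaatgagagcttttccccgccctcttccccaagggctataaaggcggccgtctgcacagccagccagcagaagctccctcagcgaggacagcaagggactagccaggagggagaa

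The Ltb window holds the κB consensus, which begins 87 bases before the start, and TTCNNNGAA, which begins 172 bases before it. The Tnfrsf18 window holds TTCNNNGAA 99 bases before the start, and no match to these letters was found in the Tnfsf10 and Tnf windows. Windows were found for 33 of the 44 members (37 windows). The κB consensus was in 4 members' windows (Ltb, Tnfrsf25, Tnfrsf8 and Tnfrsf9), or 10.8% of their windows, against 8.46% of all 32851 windows. TTCNNNGAA was in 9 (24.3% of the members' windows against 8.30% of all), those of Ltb, Tnfrsf18, Tnfrsf9, Tnfrsf1a, Tnfrsf1b, Tnfrsf25, Tnfrsf19, Lta and Fas, of which the last 4 were under the filter. The motifs do not overlap one another in the printed windows, and a match of letters does not show that a factor binds there.

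Imatinib was set against vehicle to ask which members differ under inhibition of the BCR-ABL1 kinase, and few did. Averaged over populations, 1 of 20 tested members was called, Tnf, which was lower under imatinib (background 0.606% lower, 0.854% in either direction). Within the populations 0 members were called, between IMDP and DP (background 0.367%, with 3 members at an unadjusted p under 0.05 at a background of 20.5%, and 0 among the 8 genes called by limma-voom) and between IMSP and SP (background 0%, with 1 member unadjusted at a background of 8.39%, and 0 genes called by limma-voom). By overlap, 1 member lay fully higher and 2 fully lower in IMDP than in DP libraries (background 4.58% and 19%).

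**Figure D4:**
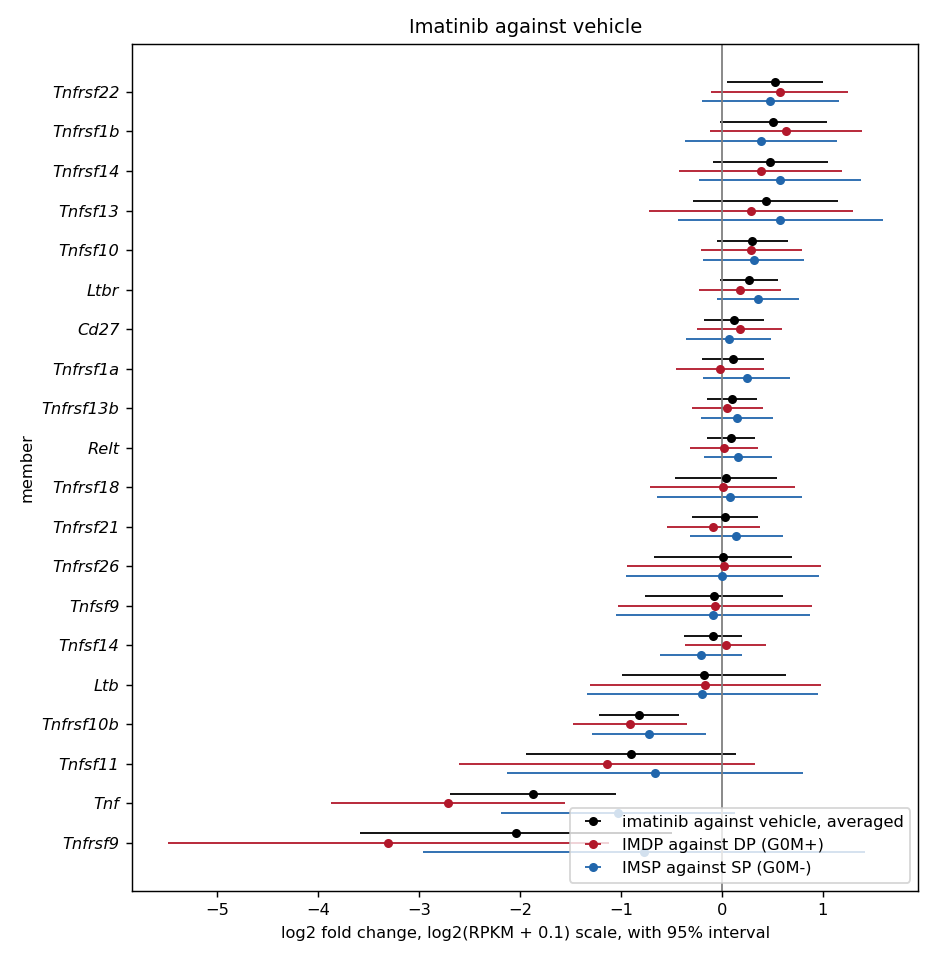
Log2 fold changes (points) with 95% intervals (bars) of imatinib against vehicle for the 20 tested members, on the log2(RPKM + 0.1) scale, averaged over populations and within G0M+ and G0M- cells. Tnf lies at -1.87 with an interval of -2.69 to -1.05 in the averaged comparison, and Tnfrsf10b and Tnfrsf9 also lie wholly below 0.

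Tnf (chromosome 17, 35199381 to 35202007) measured 7.92, 13.2 and 5.48 RPKM in DP and 2.06, 0.854 and 0.928 in IMDP libraries, without overlap. SP libraries gave 4.68, 1.46 and 6.33 RPKM and IMSP libraries 1.03, 1.70 and 2.65, which overlap through SP 2. The log2 fold change was -1.87 ± 0.38 averaged over populations (limma, adjusted p = 0.0464) and -2.71 ± 0.53 between IMDP and DP (adjusted p = 0.0538). The averaged call was lost under 18 of 24 alternatives, among them the replicate block (limma, adjusted p = 0.0574), while the averaged difference kept its sign, at -2.18 to -1.43. DP libraries held 134 to 341 Tnf reads and IMDP libraries 21 to 44.

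The share of Tnf among the ligands differed from library to library. Tnf made up 18.2% to 34.7% of the summed ligand RPKM in DP, 7.34% to 29.0% in SP, 2.99% to 6.96% in IMDP and 5.72% to 14.6% in IMSP libraries. Tnfsf10 made up 19.0% to 22.7% in DP, 15.3% to 24.2% in SP, 28.4% to 36.8% in IMDP and 18.0% to 30.0% in IMSP libraries. It was the larger of the pair in all 6 imatinib libraries, and also in the vehicle libraries DP 3 and SP 2. Its own difference between IMDP and DP was not called (0.29, limma, adjusted p = 0.502). Summed over all ligands, DP libraries held 32.5 ± 4.77 RPKM (SD, n = 3), SP 19.5 ± 3.11, IMDP 25.5 ± 6.21 and IMSP 19.2 ± 1.96.

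**Figure D5:**
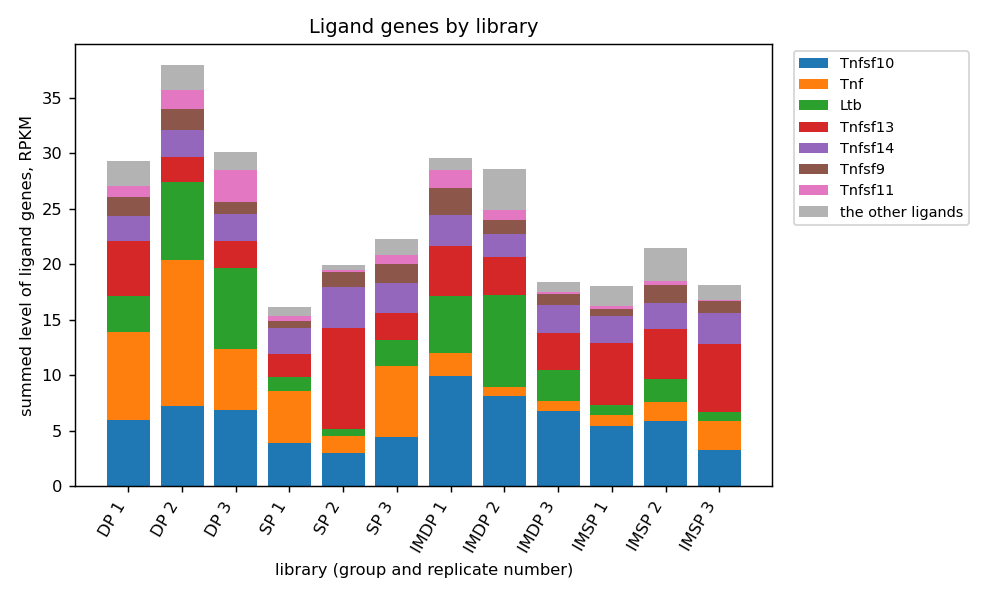
Summed RPKM of the 17 ligand genes in each of the 12 libraries, stacked by gene, with the ligands under the filter pooled in grey. The DP bars reach 29.3 to 38.0 RPKM, the Tnf segment is thin in every imatinib library, and the Ltb segment is thin in the SP and IMSP libraries.

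Tnfrsf10b was the receptor with the smallest adjusted p under imatinib, although it was not called. DP libraries gave 3.15, 3.68 and 3.25 RPKM and IMDP libraries 1.85, 1.90 and 1.49, without overlap, and the averaged log2 fold change was -0.82 ± 0.18 (95% interval -1.22 to -0.42, limma, adjusted p = 0.0574). Limma-voom on recovered reads called this gene and not Tnf. Tnfrsf9 had a difference of -3.30 between IMDP and DP (limma, adjusted p = 0.117), carried by DP 1 and DP 2. Tnfrsf22 lay above all DP libraries in the 3 IMDP libraries (averaged 0.53, 95% interval 0.05 to 1.01, limma, adjusted p = 0.238). For Ltb the averaged imatinib difference was -0.18 (95% interval -0.99 to 0.63), and for Tnfrsf18 it was 0.04 (-0.46 to 0.55).

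Whether the population difference itself differed between imatinib and vehicle was tested as an interaction, and 0 members were called (background 0%, with 1 member at an unadjusted p under 0.05 at a background of 9.3%, and 0 genes called by limma-voom). The interaction was 0.03 for Ltb (95% interval -1.59 to 1.65), -0.07 for Tnfrsf18 (-1.08 to 0.94) and -0.02 for Tnfsf10 (-0.73 to 0.69). These intervals are wide, so the treatments are not shown to act alike on the population difference. The member at an unadjusted p under 0.05 was Tnf, with -1.68 (95% interval -3.32 to -0.04, limma, adjusted p = 0.534).

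Components that act below the receptors were followed in lists of other genes. Of 12 death-complex genes, all tested, 2 were called between G0M+ and G0M- cells, both lower: Fadd, the adaptor of the death receptors (-0.56, limma, adjusted p = 0.0190), and Mlkl, the executor of necroptosis (-0.46, adjusted p = 0.0370). Mlkl was the 1 of 12 called between IMDP and IMSP (-0.65, limma, adjusted p = 0.0373). The background of lower calls was 21% and 23.3% in these comparisons, and the list medians (-0.17 and -0.34) lay near those of all genes (-0.13 and -0.25). Of 8 tested genes for TRAF adaptors and the non-canonical NF-κB branch, 0 were called in any of the 7 comparisons.

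Among 13 genes of the TNFR1 signaling complex and its ubiquitin enzymes, Tnfaip3 was the 1 called under imatinib averaged over populations (-2.04 ± 0.33, limma, adjusted p = 0.0210). It encodes A20, the deubiquitinase that restrains NF-κB and is itself induced by it. Its mean was 58.1 ± 17.8 RPKM (SD, n = 3) for DP and 36.6 ± 15.0 for SP cells under vehicle, and 13.7 ± 3.82 for IMDP and 9.93 ± 6.00 for IMSP cells under imatinib. All 6 imatinib libraries lay below all 6 vehicle libraries, as 0.635% of genes did. Map3k7 (TAK1) was the 1 of 13 called between IMDP and IMSP (-0.49, limma, adjusted p = 0.0400), where 23.3% of all genes were called lower.

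Of 7 tested genes for the shedding and processing of ligands, 1 was called, Furin, a proprotein convertase that processes APRIL and BAFF. It was higher in G0M+ cells in each population comparison (background 0.288% higher between DP and SP, 2.37% between IMDP and IMSP, 5.32% averaged over treatments). It measured 15.1 to 30.4 RPKM in DP against 4.28 to 5.81 in SP libraries (log2 fold change 1.87 ± 0.33, limma, adjusted p = 0.00974) and 5.20 to 13.7 in IMDP against 3.85 to 4.12 in IMSP libraries (1.16, adjusted p = 0.0262). Of 9 genes that control Tnf mRNA decay, 3 were lower in IMDP than in IMSP cells (background 23.3%), Khsrp (-0.50, limma, adjusted p = 0.0146), Hnrnpd (-0.63, adjusted p = 0.0162) and Elavl1 (-0.51, adjusted p = 0.0280). Averaged over treatments, Khsrp (-0.35) and Hnrnpd (-0.44) were lower (background 21%) and Zfp36l1, which promotes the decay of AU-rich mRNA, was higher (0.70, limma, adjusted p = 0.0394, background 5.32%).

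Several of the family's genes sit in clusters. Ltb, Tnf and Lta lie within a few kilobases on chromosome 17, with gaps of 3.06 and 1.16 kb, and Ltb differed between the populations and Tnf between the treatments. On chromosome 6, Cd27, Ltbr and Tnfrsf1a follow each other with gaps of 69.6 and 35.5 kb, and Ltbr and Tnfrsf1a were both lower in G0M+ cells while Cd27 was not called. On chromosome 4, Tnfrsf18 was called and Tnfrsf4, 9.55 kb away, was under the filter. Whether neighbours on a chromosome differ from each other was not tested.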

How the data were processed

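RNA-seq libraries of 12 samples (4 groups of 3) were analysed from the RPKM tables that the authors deposited. Per the labels and methods, cDNA from 100 sorted cells was primed with not-so-random primers, made into Nextera XT libraries, sequenced, mapped to GRCm38/mm10 with CLC Genomics Workbench and tested with edgeR; strand is not marked, and no molecular identifiers are described, so reads are not independent molecules. Numbered copies of a gene (4568 features) were summed. Whole reads were recovered from the RPKM steps for all 17735 features above 0 (within 0.0001 of a whole number, relaxed for larger counts) and used for depth and for limma-voom.

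Genes that reached 1 RPKM in 3 or more of the 12 libraries (10072) were tested with limma 3.58.1 (R 4.3.3) on log2(RPKM + 0.1) with a mean-variance trend, 4 group means, two-sided tests and Benjamini-Hochberg adjustment over all genes at 0.05. Fold changes on this scale understate those of low genes. The scripts were tested on simulated data. Every member was accounted for, with values per library for those called; other lists were named by their smallest adjusted p. The members and lists were chosen with earlier results of these data known. Same-numbered IMDP and IMSP libraries deviated together from their group means (correlations 0.43, 0.65 and 0.46). Same-numbered DP and SP libraries did not (-0.19, -0.30 and -0.10), whereas DP and SP libraries of adjacent library number did (0.50 to 0.52). The main fit used no block and so ignores this pairing, which entered only the alternatives with a block and the counts of library pairs. Positions are from GENCODE M21 (GRCm38), promoter windows from RefSeq GRCm38.p6. Alternatives covered the pseudocount, the filter, scaling, blocks, limma-voom and leaving out libraries. No outlier test was run on the groups of 3. Normal stem cell data were not analysed here.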

Additional observations from a re-analysis of the deposited data

How the results depend on the processing

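No member called in a comparison changed sign under any alternative: of 649 values recomputed for 29 pairs of member and comparison at an unadjusted p under 0.05, 545 kept their side of the threshold, 82 lost it, 22 gained it and 0 reversed. Averaged over treatments, Ltb, Tnfrsf18 and Tnfsf10 were called in every alternative run on them, with adjusted p up to 0.0306, 0.0161 and 0.0178, and Tnfrsf1a in every alternative but median scaling (adjusted p up to 0.0587). With a block for adjacent library numbers, 5 members (Ltb, Tnfrsf18, Tnfrsf9, Tnfsf10 and Tnfsf11) were called between DP and SP, where the fit without a block called 0. The genes called were 980 of 10072 with this block (42.9% of them higher) and 228 without it (12.7% higher). Median scaling called 1 member (Tnfrsf18, among 276 genes), and leaving out IMDP 2 and IMSP 2 called 1 (Ltb, among 250). Between IMDP and IMSP, 2 were called with only these groups in the fit (among 1553 genes), 1 (Ltb) without DP 1 and IMDP 1 (among 2987) and 1 (Ltb) without IMDP 2 and IMSP 2 (among 1019). The settings without a pair of libraries were chosen after the data had been seen. Blocking on the replicate number, 5 members were called between IMDP and IMSP (among 2781 of 10072 genes), 7 averaged over treatments (among 2811) and 0 for imatinib averaged over populations (among 59). That imatinib call (Tnf) also went to 0 with genes above 0 RPKM in at least 3 libraries and without DP 1 and IMDP 1.

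Leaving out each library in turn gave 0 to 1 members between DP and SP, 0 to 6 between IMDP and IMSP (0 without IMDP 2 or IMSP 1), 0 to 1 between IMDP and DP (Tnf, without IMDP 1 or SP 2), 4 to 8 averaged over treatments (4 without DP 2 or IMSP 1) and 0 to 1 for imatinib averaged over populations (0 without DP 1, DP 2, IMDP 2, IMDP 3, IMSP 1, IMSP 3, SP 1 or SP 3). In the same order, these fits called 125 to 264, 902 to 2962, 0 to 189, 1583 to 3061 and 12 to 143 of all 10072 genes. Median scaling moved the median of all genes between IMDP and IMSP from -0.25 to 0.02 and the share of higher genes among those called from 9.26% to 40.8% (averaged over treatments from 20.2% to 47.5%); the members called lower, Tnfrsf1a and Ltbr, lost their call there, and those called higher kept it. Between DP and SP the number of genes called rose from 228 to 980 with the library-number block, and between IMDP and IMSP from 2581 to 4446, and it was 1587 after median scaling; between IMDP and DP it went from 37 to 0 with only these groups, 2 after median scaling and 8 with limma-voom. Kept apart, 2 of the 4 numbered copies of Ltb lost the call between IMDP and IMSP. The causes were not tested. Members under the filter rest on few reads and were tested only with wider filters. With genes above 0 RPKM in at least 3 libraries, Tnfsf8 gave a log2 fold change of 1.76 between IMSP and SP (limma, unadjusted p = 0.00192, adjusted p = 0.472). Its levels were 0.394 to 1.62 RPKM in IMSP and 0.120 to 0.237 RPKM in SP libraries. Tnfsf12 gave 1.23 averaged over treatments (limma, adjusted p = 0.0553).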

Other observations

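The tables list Tnfrsf9 as 2 numbered copies that are never above 0 in the same library. The first copy holds all reads of DP 1, DP 2, DP 3, SP 1, SP 3, IMDP 1, IMDP 3 and IMSP 3, with 438 reads in DP 1. The second holds those of SP 2, IMDP 2 and IMSP 2, with 4 to 6 reads each. The 4 copies of Ltb, of Tnf and of Lta share their reads within a library instead, as in DP 2, where the copies of Tnf held 82, 75, 93 and 91 reads. The levels given for these genes are sums over copies.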
